A study of Homo sapiens and Mus musculus with 18 samples.

Results

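The comparison set proton irradiation against X-ray irradiation in J3D, a mouse cell line whose tumour type the labels give as Burkitt lymphoma. It used 6 of the 18 RNA-sequencing libraries of the series, 3 after protons and 3 after X-rays, and every one of the 12264 lines of the J3D expression table, each a gene or pseudogene. Both groups received a physical dose of 5 Gy and both were harvested at 12 h. Another 3 J3D libraries, from cells given a sham exposure (0 Gy) and also harvested at 12 h, shared the estimate of the spread. All 9 libraries came from the same line at passages 5 to 10, grown in RPMI medium with 10% serum and resuspended 6 h before exposure, and the sham cells stood outside the incubator at room temperature meanwhile. X-rays came from a 6 MV linear accelerator. Protons of 129.3 to 148.2 MeV/u were delivered by raster scanning onto cells placed mid-way through a spread-out Bragg peak, where the median linear energy transfer was 3.5 keV/µm (2.9 to 7.9). The library names carry the numbers 1 to 3, and each number holds 1 sham, 1 X-ray and 1 proton library. The labels give no separate treatment of animals or clones, and they do not say whether the numbers are separate cultures, so a p-value weighs a difference against the scatter of these libraries alone, which may be technical.

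Ionising radiation breaks both strands of DNA, and the ATM kinase then stabilises the transcription factor p53. p53 in turn switches on Cdkn1a, which holds the cell cycle, Mdm2, which returns p53 to a low level, and Bbc3, which promotes apoptosis. Protons deposit most of their energy at the end of their track, in the Bragg peak, and there ionise somewhat more densely than photons. Equal physical doses of the 2 radiations therefore ask whether the kind of radiation leaves its own mark on the cells' RNA. Burkitt lymphoma is a fast-growing B-cell tumour driven by the transcription factor MYC, which raises ribosome production and cell growth.

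The deposited values were log values, read here as log2, and from the values they appear centred gene by gene within each number, so they show differences between libraries and no expression level. Sequencing depth was not given with them. The numbers were not alike in spread. The interquartile range of the values over all genes was 0.342, 0.395 and 0.371 in the sham, X-ray and proton libraries of number 1, against 0.139 to 0.238 in the other 6 libraries. In number 1 the sham and X-ray libraries varied together across genes (r = 0.61), while the proton library ran opposite to both (r = -0.81 against sham and -0.82 against X-rays). Centring alone pushes such correlations below 0, and in numbers 2 and 3 all of them lay between -0.48 and -0.21. These are correlations over genes, which are not independent replicates. The libraries were set against the label through marker genes: 8 of 47 B-cell and germinal-centre genes had a line, among them Cd22, Btk and Ikzf1, and the defining B-cell genes Cd79a, Cd79b, Ms4a1, Pax5 and Ebf1 were not among the 12264 lines analysed here. By contrast, 27 of 42 erythroid and megakaryocyte genes had a line, including Gata1, Klf1 and Hba-a1. With no levels in the table, neither count shows how strongly the cells expressed these genes.

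No gene passed the test between protons and X-rays. With limma, blocking on the number and adjusting by Benjamini-Hochberg over all 12264 lines, 0 genes were higher after protons (0%) and 0 were lower (0%) at an adjusted p under 0.05, and the lowest adjusted p was 0.575. At an unadjusted p under 0.05 there were 273 higher genes (2.23%) and 335 lower genes (2.73%), 608 in all or 4.96% of those tested. Leaving out single libraries moved that count from 261 (without the X-ray library of number 1) to 1812 (without the X-ray library of number 2), with 321 without the proton library of number 1, 376 without the X-ray library of number 3, 392 without the sham library of number 2 and 1672 without the proton library of number 2. Without the block on the number limma again called 0 genes, with a lowest adjusted p of 0.147 and 1456 genes at an unadjusted p under 0.05. Leaving out all libraries of number 2 gave 34 called genes, leaving out number 3 gave 3, leaving out the proton library of number 3 gave 2, and leaving out number 1 gave 0. Of the 34 genes, 22 had the opposite sign in number 2, so a pass with a number left out is no support for a gene. The absence of calls does not show that the radiations acted alike. The median standard error of a gene's difference was 0.15 on the log2 scale, and the 95% confidence interval of the median gene reached 0.34 to either side. The median absolute difference between protons and X-rays was 0.16. Each radiation set against sham in the same fit also gave 0 called genes (0% of lines), with lowest adjusted p-values of 0.442 for protons and 1 for X-rays, and these comparisons share libraries with the main one.

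The proton minus X-ray difference did not repeat well from number to number. Its standard deviation over genes was 0.61 in number 1, 0.29 in number 2 and 0.35 in number 3. Over 1 log2 unit, number 1 had 525 higher and 564 lower genes, number 2 had 67 and 80, and number 3 had 111 and 91. Across all genes the differences of numbers 1 and 3 went with each other weakly (r = 0.21, rho = 0.29, 61.8% of genes on the same side of 0). Number 2 ran the other way, with r = -0.07 and rho = -0.11 against number 1 (43.8% on the same side) and r = -0.09 and rho = -0.20 against number 3 (41.0%). The median over all genes was 0.09, -0.03 and 0.06 in numbers 1, 2 and 3, so 56.2%, 42.7% and 58.1% of lines lay above 0 and 43.1%, 56.5% and 41.2% below. Above 0 in all 3 numbers were 1575 genes (12.8%), and below 0 in all 3 were 1304 (10.6%). The lowest proton library exceeded the highest X-ray library for 1077 genes (8.78%), and the highest proton library lay under the lowest X-ray library for 830 (6.77%). These shares are the background for every gene group below, and for single genes whose libraries do not overlap. From each list the 3 members of smallest p were named. That choice favours one sign in all 3 numbers and libraries that do not overlap, so neither is a result.

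**Figure D1:**
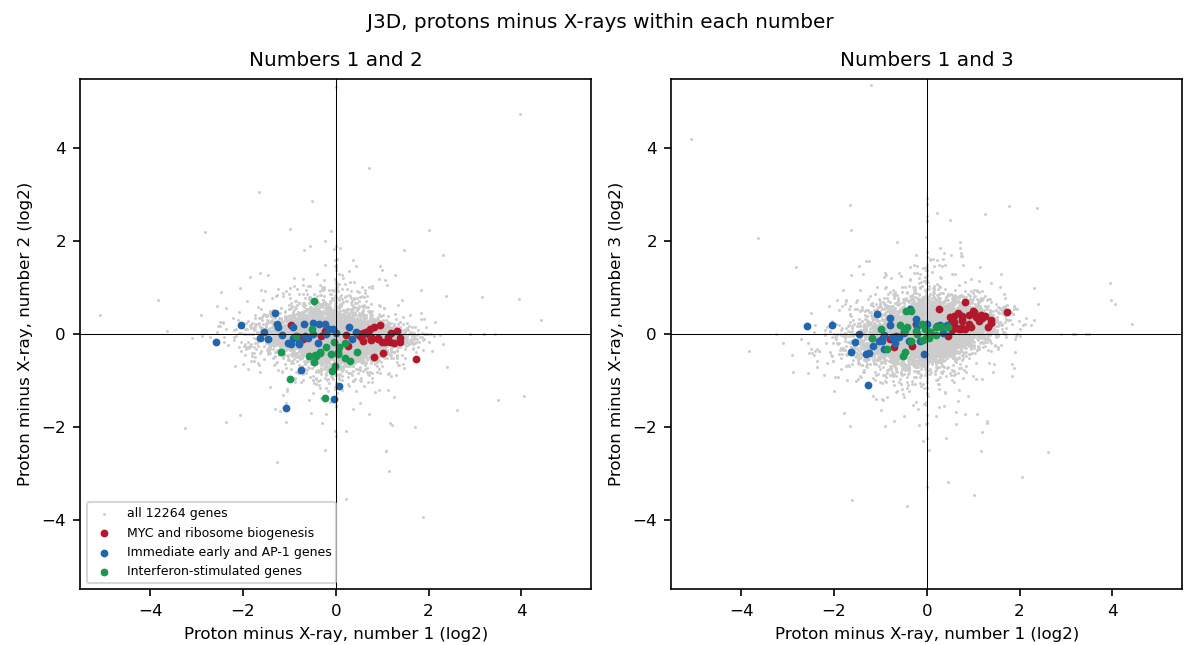
Proton minus X-ray difference (log2) of each of the 12264 lines in number 1 (horizontal axis) against number 2 (left) and number 3 (right). Ribosome biogenesis genes (red) lie to the right in number 1 and slightly above 0 in number 3, immediate early genes (blue) lie to the left in number 1, and interferon-stimulated genes (green) lie below 0 in number 2.

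The genes with the smallest p-values were mixed in function. Among protein-coding genes on the higher side, Fam129b, of the Niban family, stood at -0.19, -0.37 and -0.23 in the sham libraries of numbers 1 to 3, at -0.16, -0.12 and -0.45 after X-rays, and at 0.43, 0.39 and 0.24 after protons. All 3 proton values lay above all 6 others. Its difference was 0.59 ± 0.14 (SE; 95% interval 0.28 to 0.91; limma adjusted p = 0.600, the value shared by all 24 genes chosen by small p). Nek3, a kinase of the NIMA family, differed by 0.31, 0.82 and 0.56 in the 3 numbers (mean 0.56 ± 0.15), with sham values of 0.31, 0.44 and -0.05 that overlapped the proton values of 0.22, 0.19 and 0.14.
For most of the other higher genes the difference was widest in number 1. Cluap1, a part of the intraflagellar transport machinery of cilia, differed by 1.14, 0.39 and 0.34 (mean 0.62 ± 0.18). Trp53rk, the kinase of the KEOPS complex that modifies transfer RNAs, differed by 1.01, 0.26 and 0.41 (mean 0.56 ± 0.17), and Thg1l, which adds a guanine to histidine transfer RNA, by 0.95, 0.12 and 0.59 (mean 0.55 ± 0.17). Pou4f1, a transcription factor best known from sensory neurons, differed by 1.03, 0.40 and 0.14 (mean 0.52 ± 0.16). Lzic and D3Ertd751e had means of 0.45 ± 0.14 and 0.62 ± 0.17, with number 2 at only 0.11 and 0.05, and D3Ertd751e passed the adjusted threshold of limma at 0.91 once number 2 was left out. The group had been picked for the same sign in all 3 numbers and a small p, so its agreement between numbers is no result.

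On the lower side, Ctla2b, a relative of cathepsin propeptides that inhibits cysteine proteases, had the smallest limma p of the named genes. It stood at 0.09, 0.17 and -0.17 in sham, at 0.32, 0.42 and 0.19 after X-rays, and at -0.49, -0.43 and -0.29 after protons. The proton values lay below all 6 others and the X-ray values above all 3 sham values, for a difference of -0.71 ± 0.12 (95% interval -0.98 to -0.44). Irf5, a transcription factor of interferon and Toll-like receptor signalling, was at -0.21, -0.17 and 0.20 in sham, 0.26, 0.15 and 0.49 after X-rays, and -0.21, -0.36 and -0.28 after protons, a difference of -0.59 ± 0.12 (95% interval -0.84 to -0.33). X-ray and proton libraries did not overlap, while sham lay among both. Iigp1, an interferon-inducible GTPase that attacks the vacuoles of intracellular parasites, was at -0.20, -0.17 and -0.25 in sham, 0.39, 0.12 and 0.31 after X-rays, and -0.25, -0.09 and -0.27 after protons. Its proton values lay with sham and its X-ray values above both, with a difference of -0.47 ± 0.13.
The remaining lower genes had no common role. Rsph9, of the radial spokes of motile cilia, differed by -0.67, -0.60 and -0.37 (mean -0.55 ± 0.11). C1qtnf7, a secreted relative of C1q and tumour necrosis factor, differed by -0.82, -0.45 and -0.58 (mean -0.62 ± 0.15). Il3ra, the alpha chain of the interleukin 3 receptor, differed by -0.64, -0.17 and -0.40 (mean -0.40 ± 0.12). Fetub, a protease inhibitor known from liver, was the most even at -0.31, -0.34 and -0.39 (mean -0.35 ± 0.10), and Mettl7a1 and Xkr5 had means of -0.73 ± 0.19 and -0.46 ± 0.13. Without number 2, where it differed least (-0.32), Mettl7a1 passed the adjusted threshold at -0.94. All the lower genes, Ctla2b, Irf5 and Iigp1 included, had likewise been picked for one sign in all 3 numbers and a small p. Their agreement between numbers is therefore no result, and the choice favours genes whose libraries do not overlap. Over all genes, the highest proton library lay under the lowest X-ray library in 6.77%.

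Another 6 of the 24 genes chosen by small p were processed pseudogenes, copies of a spliced messenger RNA that share their sequence with a parent gene. Hspe1-ps3 differed by 0.96, 1.46 and 1.18 (mean 1.20 ± 0.21), Rpl30-ps8 by 0.83 ± 0.25 and Rps15a-ps5 by 0.68 ± 0.19. In number 3 the sham and X-ray values of Hspe1-ps3 were equal at -0.30. In number 2 the sham and X-ray values were equal for Rpl30-ps8 (-0.25) and for Rps15a-ps5 (-0.23). Whether such ties mark the lowest value that the processing allows was not tested. Rps27a-ps2 differed by -0.93 ± 0.23 (-1.16 and past the threshold without number 2), Rps24-ps3 by -0.67 ± 0.16 and Tpt1-ps6 by -0.39 ± 0.11. How reads were shared between such copies and their parents is not given here by any source, so these values are uncertain. Over the table, 729 processed pseudogenes had a median standard error of 0.23 and 9.19% of them an unadjusted p under 0.05, against 0.15 and 4.53% for 10864 protein-coding genes. Some of the widest differences within single numbers belonged to the same class. Rpl30-ps9 differed by 3.98, 4.73 and 0.74, and its sham and X-ray values in number 2 were equal at -2.18. S100a13, a small calcium-binding protein, differed by -5.09 in number 1, 0.41 in number 2 and 4.21 in number 3.

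**Figure D2:**
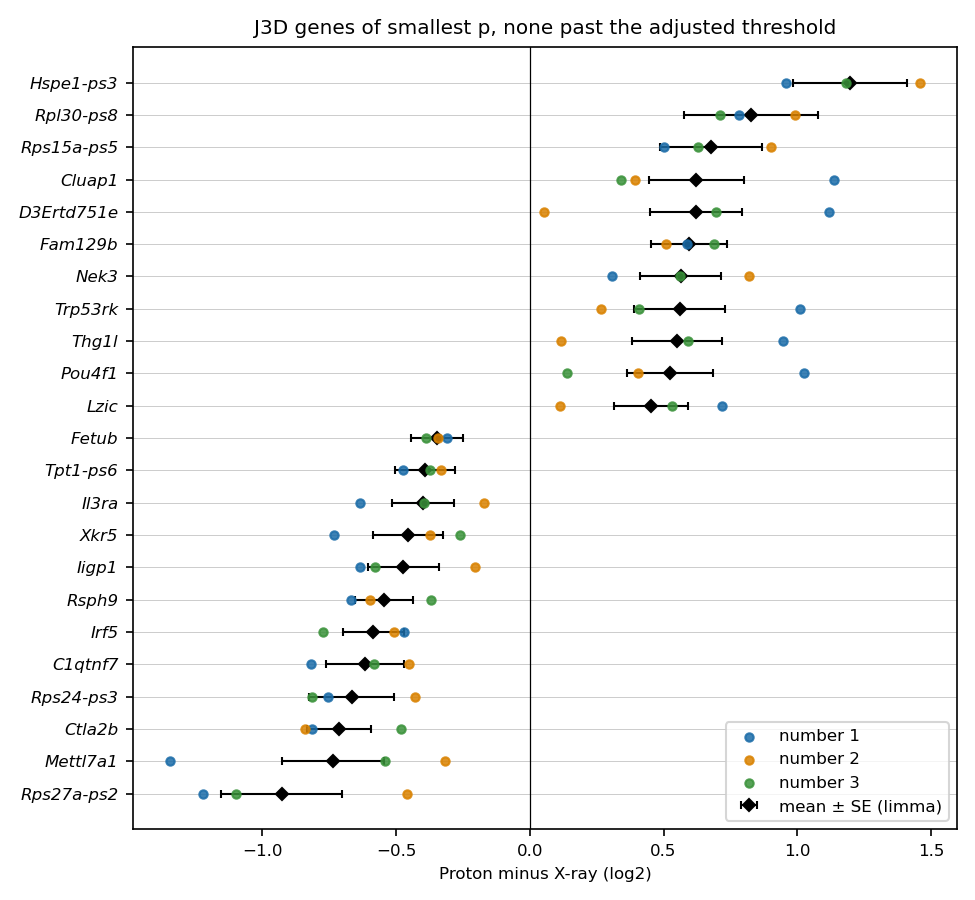
Proton minus X-ray difference (log2) in each number (coloured points) and its mean with the limma standard error (black) for named genes of smallest p on each side, pseudogenes included. Number 1 is the outermost point for Cluap1, Pou4f1 and Mettl7a1, while the 3 numbers lie close together for Fam129b and Fetub.

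Among the p53 targets, Cdkn1a, Bbc3 and Ddb2 were well below 0 in number 1 and within 0.27 of 0 in the other numbers. Cdkn1a, the p21 inhibitor of cyclin-dependent kinases, was at 0.15, 0.20 and -0.04 in sham, 0.61, -0.04 and 0.23 after X-rays, and -0.53, -0.23 and 0.03 after protons. The differences were -1.15, -0.19 and -0.20, with proton and X-ray values overlapping, for a mean of -0.51 ± 0.21 (95% interval -0.99 to -0.04; limma adjusted p = 0.600). Mdm2, the ubiquitin ligase of p53, was at -0.13, 0.04 and 0.01 in sham, -0.17, -0.02 and -0.20 after X-rays, and 0.14, 0.03 and 0.17 after protons. Its proton and X-ray libraries did not overlap, and its difference was 0.24 ± 0.11 (95% interval 0.01 to 0.48; limma adjusted p = 0.600). These direct targets of p53 thus stood on opposite sides of 0.
Bbc3, which encodes the apoptosis promoter PUMA, was at 0.73, 0.66 and 0.52 in sham, 1.05, -0.36 and -0.17 after X-rays, and -0.91, -0.25 and 0.04 after protons. Its differences of -1.96, 0.11 and 0.22 had a mean of -0.55 ± 0.45 (limma adjusted p = 0.623), and without the libraries of number 1 the mean was 0.16. Ddb2, which recognises ultraviolet damage for nucleotide excision repair, differed by -0.82, -0.27 and -0.14 (mean -0.41 ± 0.14). Of 33 measured p53 targets 0 passed, and the list's median was -0.23, 0.02 and 0.12 in the 3 numbers. On each side 2 of the 33 had an unadjusted limma p under 0.05, against 2.23% (higher) and 2.73% (lower) of all genes. Aen, a p53-induced nuclease named here after its values were seen, went the other way in number 1 at 1.21, with -0.09 and 0.20 in the other numbers.

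**Figure D3:**
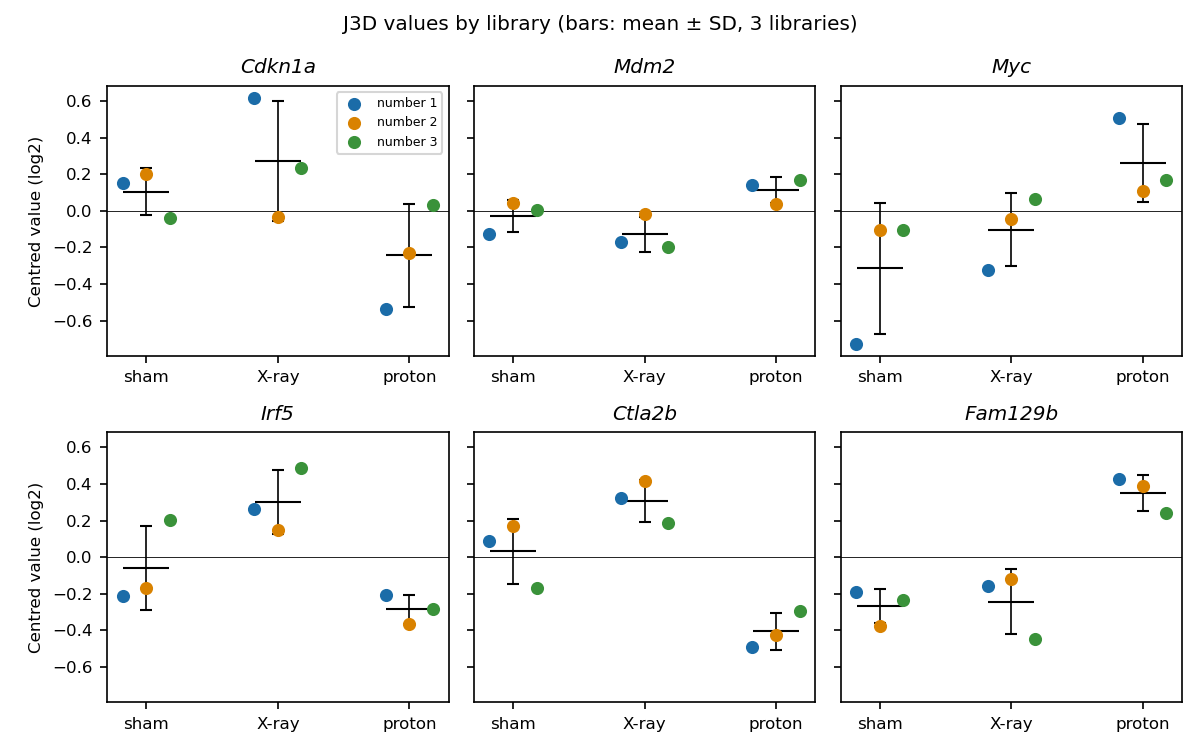
Centred log2 value of 6 genes in each library by treatment (coloured points for the number, bars for mean ± SD of 3 libraries). Proton and X-ray points do not overlap for Mdm2, Myc, Irf5, Ctla2b and Fam129b, and they overlap for Cdkn1a.

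Genes for repairing and signalling double-strand breaks had 0 of 40 members called, and list medians of 0.18, -0.13 and 0.14. Nbn, a part of the MRE11 complex that senses the break, differed by 1.09, 0.00 and 0.13 (mean 0.41 ± 0.21). Exo1, the nuclease that resects the ends, differed by 1.10, -0.04 and 0.27 (mean 0.44 ± 0.24), and Polq, the polymerase of end joining by microhomology, by 1.64, -0.16 and 0.59 (mean 0.69 ± 0.38). All 3 thus had their difference mainly in number 1. Among 29 apoptosis regulators 0 were called, and the list medians lay between -0.05 and 0.08. Bmf, which binds and blocks BCL2, was at 0.53, -0.11 and 0.71 after X-rays and -0.62, -0.16 and -0.24 after protons, a difference of -0.72 ± 0.25 (limma adjusted p = 0.600). Casp9, the initiator caspase of the mitochondrial route, differed by -0.31, -0.27 and -0.13 (mean -0.24 ± 0.12).

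Replication genes were higher after protons in numbers 1 and 3 and lower in number 2. Of 43 measured genes of G1/S and DNA replication, 38 lay above 0 in number 1, 7 in number 2 and 38 in number 3, with medians of 0.54, -0.11 and 0.19 and with 4 above 0 in all 3 numbers (9.3%, under the 12.8% of all genes). Ccne2, a cyclin of the G1/S transition, was at -0.71, 0.18 and -0.02 after X-rays and 0.54, 0.21 and 0.09 after protons (mean difference 0.47 ± 0.24). Slbp, which binds histone messenger RNA, differed by 0.71, -0.03 and 0.16, and Rpa2, of the complex that coats single-stranded DNA, by 0.70, -0.05 and 0.29. Pcna, the sliding clamp of DNA polymerases, differed by 0.71, 0.04 and -0.10 (mean 0.22 ± 0.17; limma adjusted p = 0.611). Of these 43 genes 0 were called.
Mitotic genes differed less. Of 40 measured genes of mitosis and G2/M, 0 were called, the medians were 0.22, -0.01 and 0.10, and 9 members (22.5%) lay above 0 in all 3 numbers. Cdc20, which activates the anaphase-promoting complex, differed by 0.46, 0.10 and 0.20 (mean 0.25 ± 0.15), the motor protein Kif4 by 0.27, 0.06 and 0.36 (mean 0.23 ± 0.11), and the kinase Plk1 by 0.76, -0.10 and 0.31 (mean 0.32 ± 0.21). Ccnb1, the cyclin that starts mitosis, differed by -0.04, 0.07 and 0.15 (mean 0.06 ± 0.10; 95% interval -0.17 to 0.29; limma adjusted p = 0.798). Clustered histone genes, of which 16 of 58 had a line and 0 were called, had medians of -0.02, -0.13 and -0.22, and Hist1h2bc, Hist2h2be and Hist1h1c had means of -0.47 ± 0.32, -0.42 ± 0.23 and -0.40 ± 0.21.

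MYC and the genes of ribosome production were mostly above 0 in numbers 1 and 3. Myc itself was at -0.73, -0.11 and -0.11 in sham, -0.33, -0.05 and 0.06 after X-rays, and 0.51, 0.11 and 0.17 after protons. The proton values lay above all 6 others, but narrowly, with the lowest proton value at 0.11 and the highest X-ray value at 0.06. The proton minus X-ray difference was 0.83 in number 1, and 0.16 and 0.10 in numbers 2 and 3 (mean 0.36 ± 0.20; 95% interval -0.07 to 0.80; limma adjusted p = 0.600). Of 38 measured members of the list, 33 lay above 0 in number 1, 13 in number 2 and 33 in number 3. The median was 0.76, -0.06 and 0.25, and 10 members (26.3%) lay above 0 in all 3 numbers. Here 0 were called, and 4 of 38, all higher, had an unadjusted limma p under 0.05, against 2.23% of all genes. Rrp9, of the small-subunit processome, differed by 0.66, 0.03 and 0.46 (mean 0.39 ± 0.16), Nop58, a core protein of box C/D small nucleolar particles, by 1.20, 0.02 and 0.34 (mean 0.52 ± 0.22), and Nop14 by 0.51, -0.02 and 0.36 (mean 0.28 ± 0.12). Genes for MYC's antagonists of the MXD family, which the same list holds and which were named after their values were seen, lay below 0 in number 1, with Mxd4 at -0.96, Mxd1 at -0.79 and Mxd3 at -0.71.
The median of the list by library shows where these differences arose. In number 1 it was -0.27 in sham, -0.39 after X-rays and 0.34 after protons. In number 2 it was -0.07, 0.06 and 0.02, and in number 3 it was 0.01, -0.18 and 0.07. The proton library of number 1 was thus apart from both its sham and its X-ray partner, while in number 3 the X-ray library was the lowest and proton was near sham.

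Splicing factors and proteasome subunits followed the same order of numbers. Of 66 measured splicing factors, 62, 15 and 59 lay above 0 in numbers 1, 2 and 3, with medians of 0.59, -0.07 and 0.22 and 0 called. At an unadjusted limma p under 0.05 there were 6 of the 66, all higher, against 2.23% of all genes. Srsf5, a serine- and arginine-rich factor that guides exon choice, was at -0.35, -0.06 and -0.54 after X-rays and 0.25, -0.02 and 0.26 after protons. The mean difference was 0.48 ± 0.17 (limma adjusted p = 0.600). Its libraries did not overlap, as for 8.78% of all genes in this direction. Srsf7 and Tra2a, of related function, had means of 0.38 ± 0.14 and 0.42 ± 0.17 and lay above 0 in all 3 numbers. Among 44 proteasome genes, 0 were called and the medians were 0.48, -0.02 and 0.10, with Psmg1, an assembly chaperone, at 0.49, 0.27 and 0.22 (mean 0.33 ± 0.12) and Psme3, a regulator cap, at 0.38 ± 0.19.
Cytosolic and mitochondrial ribosomal proteins stood apart from each other. Of 78 cytosolic ribosomal protein genes, 8 lay above 0 in number 1, 67 in number 2 and 15 in number 3, with medians of -0.33, 0.14 and -0.14 and with 0 called. Rpl29 was an exception at 0.73, 0.05 and 0.55 (mean 0.44 ± 0.20), and Rpl3 had its widest difference, -1.88, in number 3. Such genes have pseudogene copies, and how reads were divided among them is not known here. Its part in these values was not tested. Of 76 mitochondrial ribosomal protein genes, 28 (36.8%) lay above 0 in all 3 numbers and 2 below 0 in all 3, with medians of 0.30, 0.02 and 0.11 and with 0 called. Mrpl12, of the large subunit, differed by 0.38, 0.18 and 0.18 (mean 0.25 ± 0.12), and Mrps25 by 0.56, 0.08 and 0.49 (mean 0.38 ± 0.18).

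**Figure D4:**
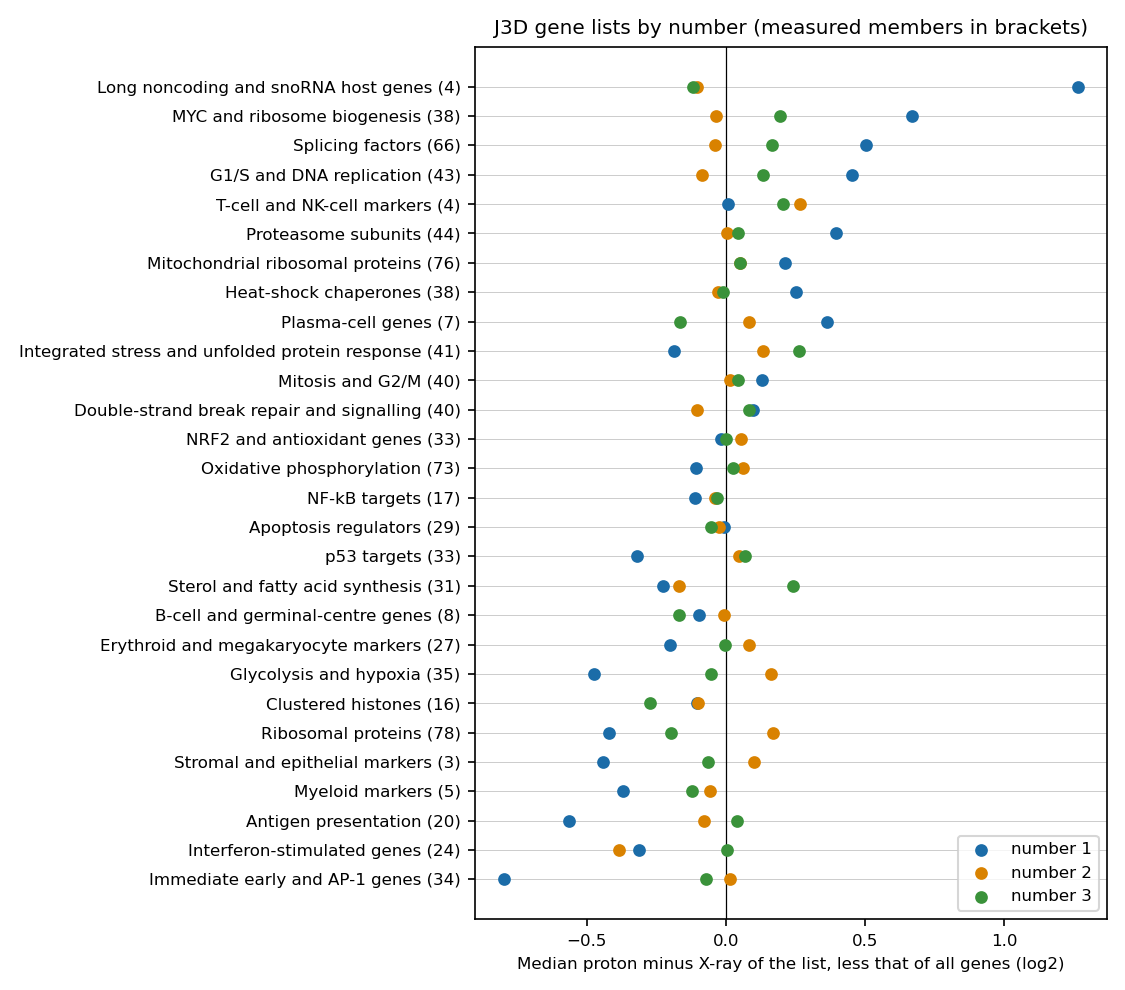
Median proton minus X-ray difference (log2) of each of 28 gene lists in numbers 1, 2 and 3, after subtracting the median of all genes in that number, with measured members in brackets. Number 1 spreads widest, from immediate early genes on the left to ribosome biogenesis and 4 noncoding host genes on the right, and 9 lists lie on the same side of all genes in all 3 numbers.

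Immediate early genes, the transcription factors and phosphatases that cells switch on within minutes of a stimulus, were the group furthest below the rest in number 1. Of 34 measured members, 29 lay below 0 in number 1, 19 in number 2 and 18 in number 3. In 10 members (29.4%, against 10.6% of all genes) the difference lay below 0 in all 3 numbers. In 3 (8.82%, against 12.8%) it lay above 0 in all 3. The medians were -0.71, -0.01 and -0.01, and 0 were called. In number 1 the list stood at 0.23 in sham, 0.39 after X-rays and -0.32 after protons, so proton was again the library apart. Nr4a1, an orphan nuclear receptor induced by antigen receptor signals, was at 0.38, 0.52 and 0.09 after X-rays and -0.37, -0.26 and 0.02 after protons (mean -0.53 ± 0.19; limma adjusted p = 0.600). Its libraries did not overlap, as for 6.77% of all genes in this direction. Fos, a subunit of the transcription factor AP-1, differed by -1.08, -1.59 and 0.43 (mean -0.75 ± 0.39), and Btg2, an antiproliferative gene that p53 also induces, by -1.15, -0.02 and -0.27. Egr1 and Jun, named after their values were seen, were furthest below 0 in number 1, with -2.57, -0.16 and 0.18 for Egr1 and -1.63, -0.08 and -0.38 for Jun.

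Interferon-stimulated genes were mostly lower after protons in numbers 1 and 2. Of 24 measured members of 43 listed, 22 lay below 0 in number 2, 17 in number 1 and 10 in number 3, and the medians were -0.22, -0.41 and 0.06. In 6 members (25.0%, against 10.6% of all genes) the difference lay below 0 in all 3 numbers, and 0 were called. Ddx58, which encodes the RNA sensor RIG-I, was at 0.40, 0.36 and 0.03 after X-rays and -0.57, -0.61 and 0.14 after protons. Numbers 1 and 2 thus had nearly the same difference (-0.98 and -0.97) and number 3 had 0.11 (mean -0.61 ± 0.21; limma adjusted p = 0.600). With the proton library of number 3 left out, or all of number 3, Ddx58 passed the adjusted threshold of limma at -0.97. Parp9, a partner in interferon signalling, differed by -0.33, -0.40 and -0.14 (mean -0.29 ± 0.14). In number 2 the master regulator Irf7 was at -1.37 and Usp18 and Oasl1 at -0.79 and -0.70, all 3 named after their values were seen.
Of 17 NF-kB targets 0 were called, and the medians lay between -0.07 and 0.03. Of the 17, 2 had an unadjusted limma p under 0.05, both lower, against 2.73% of all genes. They were Nfkb2 and Bcl3, themselves members of the NF-kB system. They had means of -0.28 ± 0.11 and -0.36 ± 0.15 with all 3 numbers below 0. Of 20 antigen presentation genes 0 were called and the medians were -0.48, -0.10 and 0.10. Tap1, which pumps peptides to class I molecules, differed by -0.85, -0.04 and -0.33 (mean -0.41 ± 0.19), and the class I gene H2-T22 by -1.14, 0.01 and -0.25 (mean -0.46 ± 0.21).

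**Figure D5:**
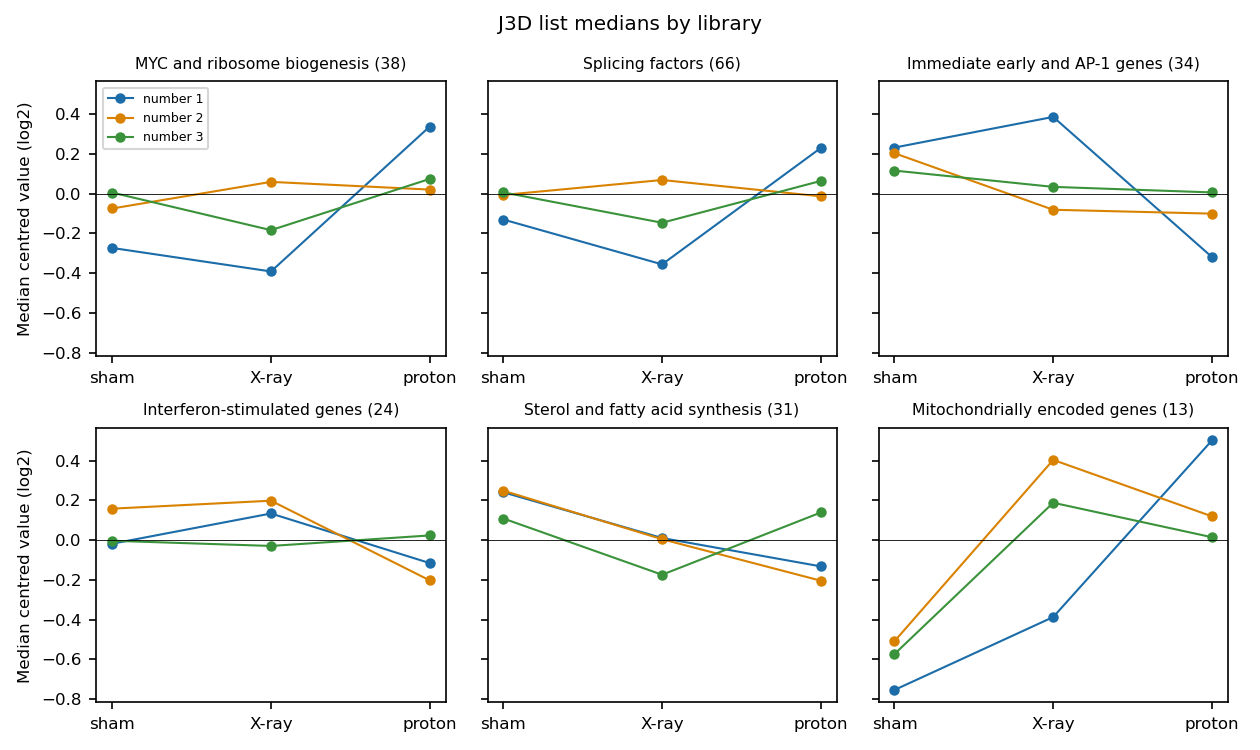
Median centred log2 value of 6 gene lists in the sham, X-ray and proton libraries, joined by number (measured members in brackets). In number 1 the proton library is apart from both other libraries for ribosome biogenesis, splicing and immediate early genes, and the mitochondrially encoded genes are lowest in sham in all 3 numbers.

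Metabolic and stress genes differed by number. Glycolysis and hypoxia genes, 35 measured and 0 called, had medians of -0.39, 0.14 and 0.00. Car9, a carbonic anhydrase induced by low oxygen, was at 0.86, 0.37 and 0.53 in sham, 0.73, 0.14 and 0.30 after X-rays and -1.06, -0.27 and -0.01 after protons (mean difference -0.84 ± 0.45), and the glucose transporter gene Slc2a3 differed by -1.05, -0.08 and -0.37. The widest in number 1, Aldoc at -3.83 and Ndrg1 at -2.90, stood at 0.74 and 0.40 in number 2, and both were named after their values were seen. Sterol and fatty acid synthesis genes also split by number. All 31 measured members lay above 0 in number 3 and 29 lay below 0 in number 2, with medians of -0.14, -0.20 and 0.30 and 0 called. Fasn, the fatty acid synthase, differed by 1.11, -0.43 and 0.67 (mean 0.45 ± 0.27).
Genes of the integrated stress and unfolded protein responses were above 0 for 38 of 41 measured members in number 3, 28 in number 2 and 18 in number 1, with medians of -0.10, 0.11 and 0.32 and 0 called. Wars, a transfer RNA synthetase that is also induced by interferon, differed by 0.41, 0.19 and 0.33 (mean 0.31 ± 0.12), and Atf5, a transcription factor of the response, by 0.36, 0.72 and 0.40 (mean 0.49 ± 0.23). Of 38 heat-shock chaperone lines 0 were called, with medians of 0.34, -0.06 and 0.05. The mean difference was above 0 for 29 of them and below 0 for 9. Dnajc7 differed by 0.69, 0.02 and 0.34 (mean 0.35 ± 0.13), and Hspa14 by 0.09, 1.86 and 0.09 (mean 0.68 ± 0.35). A single library set Hspb1, the small heat-shock protein HSP27, which was at 1.64 after X-rays in number 3 against -0.66 after protons, and between -0.14 and 0.09 in every library of numbers 1 and 2. Hspa1b, an inducible HSP70 gene named after its values were seen, likewise differed by -1.96 in number 3, with -0.16 and 0.35 in the other numbers.
Antioxidant genes of the NRF2 pathway had medians of 0.07, 0.03 and 0.06 over 33 measured members, with 0 called. Gclm, which helps to make glutathione, differed by 0.79, 0.50 and 0.07 (mean 0.45 ± 0.14), and its X-ray values of -0.42, -0.19 and -0.09 lay below the proton values of 0.37, 0.31 and -0.03. Hmox1, heme oxygenase, differed by -1.01, 0.18 and -0.48 (mean -0.44 ± 0.26; limma adjusted p = 0.600). Of 73 nuclear genes of oxidative phosphorylation 0 were called and the medians lay between -0.02 and 0.08. The 13 genes on the mitochondrial genome, a list added after their values were seen, were all above 0 in number 1 (median 0.98) and all below 0 in number 2 (median -0.32). In number 3 the median was -0.17. The genes mt-Co3 and mt-Nd1, of cytochrome oxidase and complex I, had means of -0.21 ± 0.12 and 0.27 ± 0.34.

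Markers of other cell types did not give a called gene either. Of 8 measured B-cell genes 0 were called. The mean difference was above 0 for 3 of them and below 0 for 5, with a list median of -0.02. Cd55, which shields cells from complement, had the smallest p of the 8. It differed by -1.49, -0.34 and -0.46 (mean -0.76 ± 0.28; limma adjusted p = 0.600). Its X-ray values of 0.69, 0.07 and 0.30 did not overlap its proton values of -0.80, -0.26 and -0.16, as for 6.77% of all genes in this direction. Of the 27 measured erythroid and megakaryocyte genes 0 were called, with medians of -0.12, 0.06 and 0.05. Hba-a1, an alpha-globin gene, was at 0.89, 0.46 and -0.50 after X-rays and -0.76, -0.21 and 0.10 after protons, so its sign differed between numbers. The summed values of these 27 genes ranged from -1.18 to 0.56 over the X-ray libraries and from -1.98 to 1.73 over the proton libraries. Few markers of T and NK cells (4 of 27), myeloid cells (5 of 27), plasma cells (7 of 15) and stromal or epithelial cells (3 of 22) had a line, and 0 of them were called. Summed values over X-ray and proton libraries ranged from -0.65 to -0.07 and 0.24 to 1.24 for T and NK cells. For myeloid cells they ranged from -0.53 to 0.61 and -0.50 to -0.44, for plasma cells from -1.09 to 0.31 and -0.32 to 0.93, and for stromal and epithelial cells from -0.36 to -0.05 and -0.58 to 0.07. The T- and NK-cell sum thus did not overlap between the radiations, on Gata3 (0.47 ± 0.23), Tcf7 (0.26 ± 0.17), Lck (0.13 ± 0.12) and Lat. In each number 3 of these 4 genes lay above 0 and 1 below, and 1 lay above 0 in all 3. The T-cell receptor genes Cd3e, Cd3d, Cd3g and Cd247 had no line. Of single genes, 8.78% did not overlap in this direction. The part of this sum in the results was not tested.

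The human Burkitt lymphoma line BL41, given protons and X-rays at the same dose and time but normalized in a table of its own, was set beside J3D. There limma called 0 of 15069 genes (0% in either direction), with a lowest adjusted p of 0.708 and 790 genes (5.24%) at an unadjusted p under 0.05. Cdkn1a differed by -0.51 ± 0.21 in J3D and -0.06 ± 0.12 in BL41, and Mdm2 by 0.24 ± 0.11 and 0.24 ± 0.18. Bbc3 had a mean below 0 in both, at -0.55 ± 0.45 and -0.41 ± 0.22. In J3D that mean rested on number 1 (-1.96), with 0.11 and 0.22 in numbers 2 and 3. The median of the ribosome biogenesis list was 0.33 in J3D and 0.24 in BL41, where 34 of 39 members lay above 0. The median of the mitosis list was 0.11 in J3D and -0.17 in BL41, and that of immediate early genes -0.30 and 0.03. No difference between the lines was tested.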

How the data were processed

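RNA was sequenced from mouse J3D cells. The submitters' processing notes name TopHat2 and mm10 (and hg19 for BL41); the sources used here give no counting tool, normalization or log base. The values as deposited by the authors were log values, read as log2. As inferred from the values alone, they appear centred per gene within each number, around 4 libraries, and 3 per number were analysed. This removes levels and hides depth, so no depth limit can be given. No line was filtered. limma 3.58.1 (R 4.3.3) fitted all 9 J3D libraries with group means and the number as a block (4 residual degrees of freedom), trend and robust moderation, and Benjamini-Hochberg adjustment (threshold 0.05). The block is in the main model because the centring appears to be per number; centring prevents a check of pairing by correlation, and the meaning of the numbers is not labelled. Named genes are the 12 of smallest p on each side with one sign in all 3 numbers and a named, single-line symbol, the 3 of smallest p per list, and 7 fixed genes. Members and lists were chosen with earlier results of these data known. No mouse sequence is printed, and a few genes that the rule named are not reported here. Alternatives were no block, irradiated libraries alone, other scalings, moderation, weights, tied lines and left-out libraries.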

Additional observations from a re-analysis of the deposited data

Results flagged for a closer look

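Of 82 named genes with a line for both cell lines, 3 had a proton minus X-ray difference on one side of 0 in all 3 numbers of J3D and on the other side in all 3 numbers of BL41, and the difference between the lines was not tested. The share of all genes with this pattern was not counted. Some of the named genes had been picked for one sign in J3D, so the count of 3 is no result. Pou4f1, a neuronal transcription factor, stood at 0.52 in J3D and -0.16 in BL41. Cdc20, the mitotic activator of the anaphase-promoting complex, stood at 0.25 and -0.19, but its BL41 difference in number 1 was only -0.00098. Casp9, the initiator caspase, stood at -0.24 and 0.08. None of the 3 passed the adjusted threshold of limma in either line.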

How the results depend on the processing

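In J3D, 0 genes passed under every setting that kept all 9 libraries or the 6 irradiated ones (no replicate block, irradiated libraries alone, trimmed means, quantile normalization, no tied lines, array weights, no robust moderation, no trend), with lowest adjusted p-values of 0.147 to 0.828. Leaving out libraries gave 0 to 34 called genes and 0 to 2 called list members. Without the proton library of number 3, 2 genes passed (Acsm3 and Ddx58). Without number 3, 3 passed, and without number 2, 34 passed (23 higher and 11 lower, among them D3Ertd751e, Mettl7a1, Rps27a-ps2 and Ndufa12), of which 22 had the opposite sign in number 2. Without number 1, 0 passed. The cause was not tested. In BL41, 1 gene passed with quantile normalization, and leaving out libraries gave 0 to 1. The median difference of all genes, 0.04, was 0.01 with trimmed means and 0.01 with quantile normalization. Of 920 gene values under settings that left no library out, 2 switched sign, both with array weights and the replicate block: S1pr2 at 0.0342 and mt-Nd1 at -0.0743. Of 1380 gene values with libraries left out, 12 switched sign, with ranges of -0.93 to 0.16 for Bbc3, -0.37 to 0.0725 for Fcgr3, -0.0307 to 0.37 for Pcna, -0.18 to 0.00872 for Pecam1, -0.22 to 0.0922 for S1pr2 and -0.16 to 0.52 for mt-Nd1. List medians moved by more than the spread between numbers in 5 of 224 and 12 of 336 cases. The deposited values allow no statement about depth.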
